A study of Homo sapiens with 8 samples.

Results

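BPH-1 is an epithelial line from benign prostatic hyperplasia and WPMY-1 is a myofibroblast line from prostate stroma, each an immortalized line and therefore a single cell population rather than a gland. Genes that responded alike in both lines to RWF, an extract of Rauwolfia vomitoria root bark, were sought on all 8 Affymetrix Human Transcriptome Arrays of the study. The 4 groups were BPH-1 with vehicle, BPH-1 with RWF, WPMY-1 with vehicle and WPMY-1 with RWF, with 2 arrays in each. RWF was given at 250 µg/ml for 24 h, both lines were grown with fetal bovine serum, and their basal media differed (RPMI1640 for BPH-1, DMEM for WPMY-1), so line and medium cannot be told apart. Whether the 2 arrays of a group stem from separate cultures is not given in the labels, so the p-values rest on the spread between arrays alone, and that spread may be technical. Each value is the deposited log2 expression value of a transcript cluster, a set of probes that reads 1 gene or locus, and each of 22411 genes was read by its brightest cluster annotated to that gene alone. RWF arrays were compared with vehicle arrays across both lines with limma, with the line as a blocking term and Benjamini-Hochberg adjustment over all 67528 clusters. A gene was counted as moving alike where its adjusted p was under 0.05, both RWF arrays lay on the same side of both vehicle arrays in each line, and the smaller line effect was at least 0.5 of the larger. By these criteria 173 of 22411 genes moved alike, 114 of them higher (0.509%) and 59 lower (0.263%) with RWF. Where such a gene is described below as without overlap in both lines, this restates the choice and is not a further result.

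Cells that sense a shortage of amino acids or misfolded protein in the endoplasmic reticulum (ER) slow general translation and switch on a shared transcriptional programme, the integrated stress response, whose targets import and make amino acids and rebuild glutathione. Shortage of nutrients also releases the transcription factors that drive lysosome and autophagy genes, while the synthesis of ribosomes is turned down. Epithelium and stroma of the prostate differ in most of their identity genes but share these housekeeping stress programmes.

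The lines kept their labelled identity. All 21 measured epithelial markers were higher in BPH-1 than in WPMY-1 vehicle arrays, with a median difference of -2.66 (log2, WPMY-1 minus BPH-1), and 20 of 21 stromal markers were higher in WPMY-1, with a median difference of 1.88. Of these markers 0 passed the average RWF effect by limma. At an unadjusted p under 0.05, 1915 of all 22411 genes were higher with RWF and 1838 lower, and counts of list members at that p are to be set beside these. Epithelial markers had a median average effect of 0.06, with 6 higher and 1 lower at an unadjusted p under 0.05 and 1 call when the mean of both line effects was taken from a fit of 4 groups, and stromal markers had a median of -0.16, with 0 higher and 9 lower at that p and 0 calls in that fit. Leukocyte and endothelial markers, 5 of each, lay at median log2 values of 4.29 to 4.65 and of 3.29 to 3.30 in the vehicle groups, at or below the median of all deposited values (4.55) except for the leukocyte list in BPH-1. Across clusters, r was 0.995 to 0.997 between arrays of a group and 0.990 to 0.996 between a vehicle and an RWF array of a line.

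Averaged over both lines, 120 genes were higher with RWF (0.535% of genes tested) and 61 were lower (0.272%), 181 in all (0.808%). Counts of list members that rose or fell are to be set beside these shares. The excess of rises was absent without BPH-1 vehicle replicate 2 and present with any other single array left out. Among the 181 genes, the 114 that moved alike upward had average effects from 0.31 to 1.46 on the log2 scale, with a median of 0.48. The 59 that moved alike downward had effects from -1.42 to -0.29, with a median of -0.44. Arrays of RWF and vehicle did not overlap in both lines, in the same direction, for 8.26% of all genes upward and 6.96% downward, so that criterion alone selects far more genes than the test. The change was larger in WPMY-1 for 81 of the 114 risers and for 55 of the 59 fallers. When each line was tested alone, 2 of the risers passed in BPH-1, against 0.0134% of all genes upward, and 58 passed in WPMY-1, against 0.892%. Of the fallers 0 passed in BPH-1, against 0.00892% of all genes downward, and 32 passed in WPMY-1, against 1.11%. Risers and fallers were chosen from these same arrays by their values in each line. Shares above those of all genes are therefore favoured by the choice and are not independent evidence. Most were protein-coding genes, 110 of the risers and 55 of the fallers, and 112 and 58 of them were brighter than the median of the table, as were 15925 of all 22411 genes. Shares over all genes were not counted for protein-coding genes or for a larger change in WPMY-1.

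**Figure D1:**
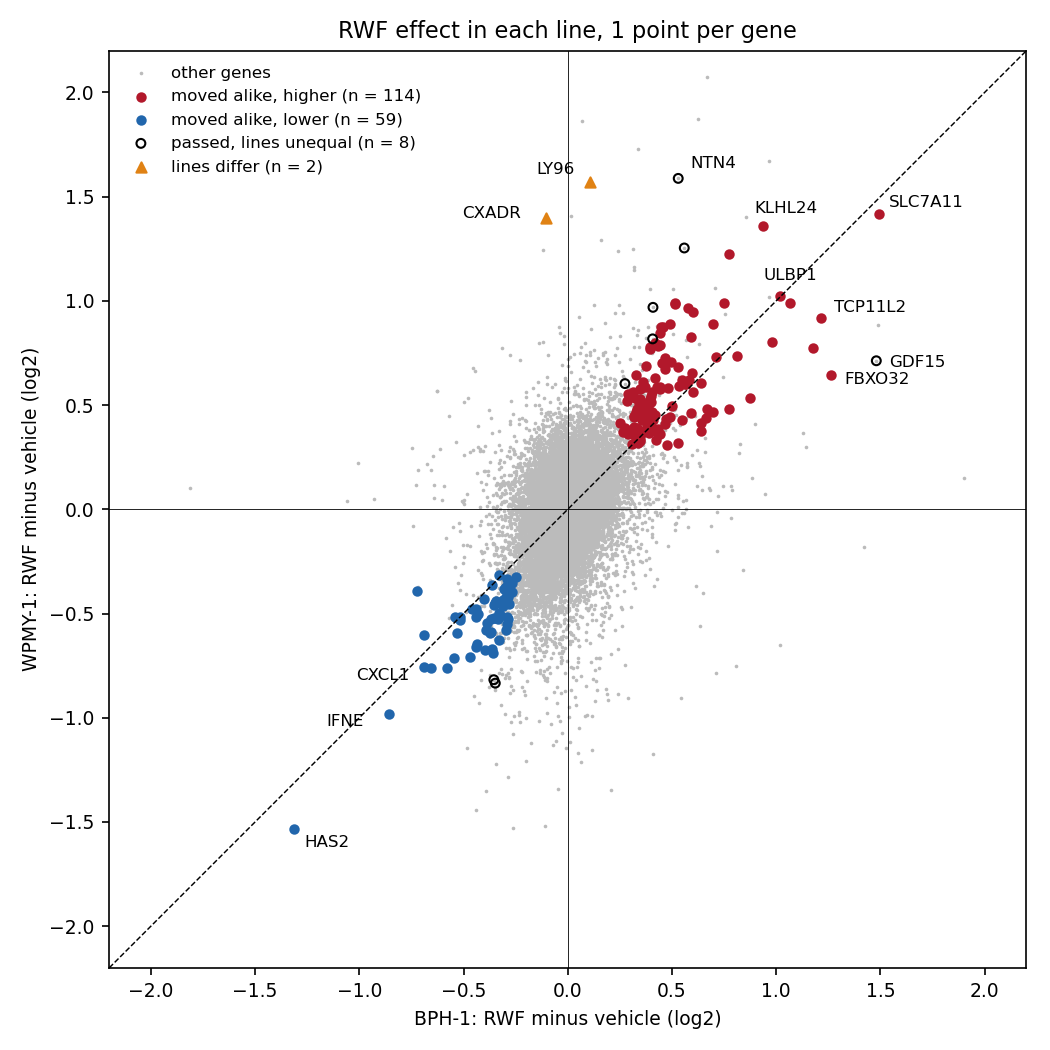
RWF minus vehicle (log2) of 22411 genes in BPH-1 (x axis) and WPMY-1 (y axis), each the difference of 2 arrays per treatment, with the dashed line marking equal effects. The 114 red and 59 blue genes that moved alike lie near the diagonal, where the criteria place them, from HAS2 (-1.31 and -1.53) to SLC7A11 (1.49 and 1.42). Open circles mark 8 genes that passed the average test with a line effect under 0.5 of the other.

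These counts rested on few arrays. Direction could not change with 1 array left out, because RWF and vehicle arrays of all 181 genes did not overlap in either line. With 1 array left out, the number of genes past the average test was 194 without BPH-1 vehicle replicate 2, 125 without BPH-1 RWF replicate 2, 55 without BPH-1 RWF replicate 1, 36 without WPMY-1 vehicle replicate 1, 28 without WPMY-1 RWF replicate 2, 23 without BPH-1 vehicle replicate 1, 23 without WPMY-1 RWF replicate 1 and 19 without WPMY-1 vehicle replicate 2. All 181 genes kept their direction in the 8 fits and 13 passed in each of them, namely KLHL24, HERC5, MCOLN3, GREM1, PMAIP1, CHKA, NQO1, MAP1LC3B, LONRF1, NIPAL2, CNTNAP3, CXCL6 and CXCL1, while 37 passed in none.

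The largest average rise was that of SLC7A11, and CTH, ASNS and CHAC1, which also act in amino acid or glutathione metabolism, were among the largest. Between them lay KLHL24, TCP11L2, ULBP1, HERC5 and FBXO32, given further on, and the unequal rises of GDF15, NTN4 and WIPI1. SLC7A11, the cystine and glutamate exchanger that feeds glutathione synthesis, read 8.49 and 8.08 in BPH-1 vehicle, 10.01 and 9.53 in BPH-1 RWF, 8.48 and 7.48 in WPMY-1 vehicle and 9.86 and 8.94 in WPMY-1 RWF arrays. No RWF array of a line was as low as its vehicle arrays, although the arrays within the WPMY-1 vehicle and RWF groups were spread (SD 0.71 and 0.65, n = 2). Its average rise was 1.46 ± 0.25 (SE, log2), or 2.74-fold (limma, adjusted p = 0.0401), with 1.49 in BPH-1 and 1.42 in WPMY-1. CTH, the enzyme that makes cysteine from cystathionine, read 5.07 and 5.03 in BPH-1 vehicle, 6.05 and 6.19 in BPH-1 RWF, 4.92 and 4.59 in WPMY-1 vehicle and 6.09 and 5.39 in WPMY-1 RWF arrays. It did not overlap between treatments in either line and rose by 1.03 ± 0.14, or 2.04-fold (adjusted p = 0.0197). ASNS, asparagine synthetase, read 6.70 and 6.70 in BPH-1 vehicle, 7.73 and 8.03 in BPH-1 RWF, 7.26 and 6.72 in WPMY-1 vehicle and 8.05 and 7.48 in WPMY-1 RWF arrays. As the criterion for moving alike requires, no RWF array of ASNS fell into the range of the vehicle arrays of its line. The average rise was 0.98 ± 0.16 (limma, adjusted p = 0.0341), larger in BPH-1 (1.18) than in WPMY-1 (0.77). The interval for the difference held 0 (-1.11 to 0.30). CHAC1, which degrades glutathione and is a target of this response, read 6.34 and 6.44 in BPH-1 vehicle, 7.32 and 7.42 in BPH-1 RWF, 6.62 and 6.38 in WPMY-1 vehicle and 7.66 and 6.94 in WPMY-1 RWF arrays. Its treatments did not overlap in either line, and it rose by 0.89 ± 0.14 (adjusted p = 0.0299).

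**Figure D2:**
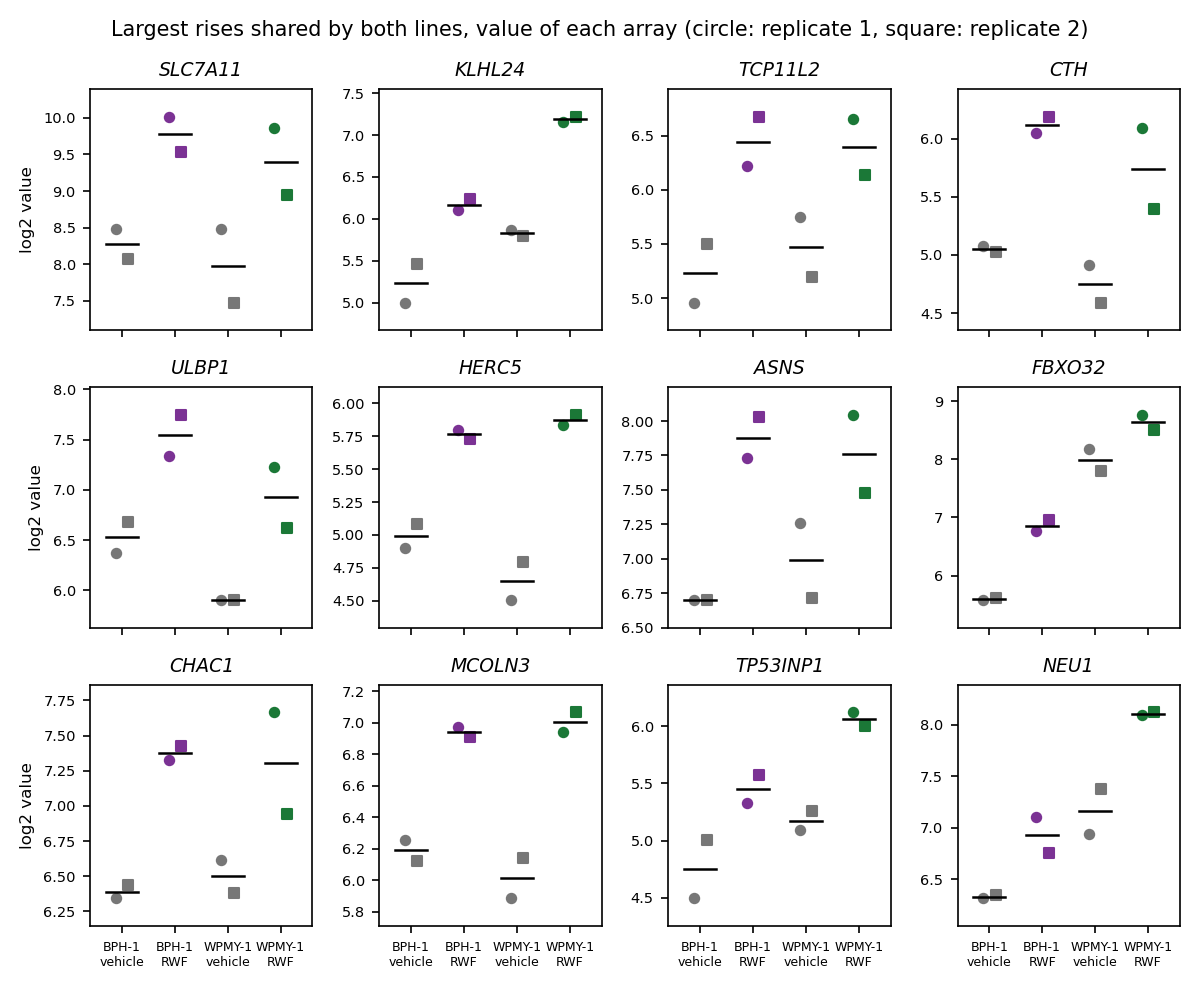
Log2 value of each array (circle: replicate 1, square: replicate 2, bar: mean of 2 arrays) for 12 of the largest rises shared by both lines, with vehicle in grey, BPH-1 RWF in purple and WPMY-1 RWF in green on axes that start at different values. In every panel both RWF arrays lie above both vehicle arrays of the same line, as the criterion for moving alike requires. SLC7A11, CTH, ASNS and CHAC1 show the WPMY-1 RWF replicate 1 array above replicate 2.

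Proximal promoters of 2 of these genes hold the letters of an amino acid response element core and are shown for that reason, and that of TXNRD1, a rising gene of the antioxidant response described further on, holds those of an antioxidant response element core. The 250 bases before the first listed RefSeq start (GRCh38.p14) are given 5′ to 3′ on the strand of the gene, with the matched letters in capitals. ASNS lies on the minus strand at chr7:97872409-97872658 and matches TGATGNAA from base 68 before the start, CHAC1 lies on the plus strand at chr15:40953221-40953470 and matches the same motif on the opposite strand from base 209, and TXNRD1 lies on the plus strand at chr12:104215529-104215778 and matches TGACNNNGC from base 99.
ASNS: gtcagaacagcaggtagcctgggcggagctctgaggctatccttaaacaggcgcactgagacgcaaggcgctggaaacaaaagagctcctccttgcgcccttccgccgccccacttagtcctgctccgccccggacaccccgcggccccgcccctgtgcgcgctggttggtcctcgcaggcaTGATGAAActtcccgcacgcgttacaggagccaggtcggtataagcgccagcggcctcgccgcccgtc
CHAC1: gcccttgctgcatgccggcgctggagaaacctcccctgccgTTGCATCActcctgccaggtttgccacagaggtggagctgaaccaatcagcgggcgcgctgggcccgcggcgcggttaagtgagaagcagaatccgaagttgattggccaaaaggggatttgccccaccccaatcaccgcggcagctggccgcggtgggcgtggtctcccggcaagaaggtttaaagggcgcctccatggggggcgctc
TXNRD1: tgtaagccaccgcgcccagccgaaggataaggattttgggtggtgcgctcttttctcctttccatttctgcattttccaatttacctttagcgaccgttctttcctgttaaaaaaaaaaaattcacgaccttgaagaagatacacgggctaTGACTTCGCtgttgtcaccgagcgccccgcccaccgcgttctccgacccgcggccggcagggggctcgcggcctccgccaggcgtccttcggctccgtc
Of the 114 risers and 59 fallers, 95 and 45 had a promoter in the RefSeq table, as did 15374 of all genes tested. On either strand, TGATGNAA was found in 2 of 95 risers (2.11%), 2 of 45 fallers (4.44%) and 2.33% of all promoters, so ASNS and CHAC1 were the only risers with it in this window and the fallers ANP32D and TIMM22 held it too. TGACNNNGC was found in 15 of 95 risers (15.8%), among them TXNRD1, MAP1LC3B, HERC5 and IRS2, in 3 of 45 fallers (6.67%) and in 11.7% of all promoters. The CCAAT box was found in 43 of 95 risers (45.3%), 18 of 45 fallers (40.0%) and 34.4% of all promoters. GTAAACA, a forkhead site, was in 3 risers (KLHDC2, TCP11L2 and ULBP1) and TCACNCCAC, a sterol regulatory element, in 1 (SLC1A4), against 2.33% and 0.891% of all promoters. TCACGTGA, an E-box of lysosomal genes, and TTATGTAA, a D-box, were in 0 of the 95 and 0 of the 45, against 1.22% and 0.631% of all promoters. Such matches describe letters in a short window and no binding was measured.

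Of 15 measured regulators and targets on the list of the integrated stress response, 4 rose and 0 fell, and 12 had non-overlapping arrays upward in both lines (80.0%, against 8.26% of all genes). The median average effect of the list was 0.42, with 0.29 in BPH-1 and 0.58 in WPMY-1, beside 0.03 over all genes. Besides CHAC1, SESN2 and DDIT4 rose, by 0.58 ± 0.10 and 0.53 ± 0.09 (adjusted p = 0.0382 and 0.0401), and both encode stress proteins that restrain the kinase mTORC1. SESN2 read 6.39 and 6.46 in BPH-1 vehicle, 6.81 and 6.82 in BPH-1 RWF, 6.70 and 6.88 in WPMY-1 vehicle and 7.71 and 7.40 in WPMY-1 RWF arrays, without overlap in either line. PPP1R15A, TRIB3, ATF3 and CEBPG did not pass, with average effects of 0.58, 0.44, 0.33 and 0.32 and adjusted p-values of 0.0714, 0.130, 0.0674 and 0.0828. Among 13 amino acid transporters 2 rose, SLC7A11 and SLC1A4, an exchanger of small neutral amino acids (0.52 ± 0.08, adjusted p = 0.0307). SLC3A2, the heavy chain that SLC7A11 pairs with, lay just outside the threshold (0.50, adjusted p = 0.0507). SLC7A5, SLC38A2 and SLC1A5 had larger differences in BPH-1 (0.38, 0.47 and 0.46) than in WPMY-1 (0.06, 0.02 and 0.07) and did not pass on average. Of 12 enzymes of amino acid and one-carbon synthesis 2 rose, CTH and ASNS, and PHGDH, PSAT1 and ALDH1L2 gave 0.57, 0.65 and 0.71 without passing (adjusted p = 0.112, 0.143 and 0.0541). Of 19 cytosolic aminoacyl-tRNA synthetases 0 rose and VARS1 fell (-0.45 ± 0.07, adjusted p = 0.0258). VARS1 was read by 1 of 7 clusters.

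The 2 WPMY-1 RWF arrays were unequal in these lists. Replicate 1 was above replicate 2 for 12 of 15 stress response genes, 13 of 13 transporters and 12 of 12 synthesis enzymes, against 12709 of all 22411 genes, and the medians over the vehicle mean were 0.72 and 0.34, 0.35 and -0.02, and 0.45 and 0.12 for replicates 1 and 2. Over the 40 genes of the 3 lists, 22 (55.0%) were higher in replicate 1 than in replicate 2 of both WPMY-1 treatments, against 19.1% of all genes, and 10 of the 40 were so in BPH-1, against 23.7% of all genes. The calls were also lost with arrays of other groups left out. Without WPMY-1 RWF replicate 1, 0 of the 15, 0 of the 13 and 1 of the 12 passed, without BPH-1 vehicle replicate 1 the counts were 0, 0 and 0, and without WPMY-1 vehicle replicate 2 they were 1, 0 and 0. Over all 8 fits with 1 array left out each list had 0 to 2 calls. The part of this difference between arrays in the result was not tested.

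Some genes on the lists of starvation, lysosomes and autophagy rose as well. KLHL24, a substrate adaptor of a cullin ubiquitin ligase, read 5.00 and 5.46 in BPH-1 vehicle, 6.10 and 6.23 in BPH-1 RWF, 5.86 and 5.79 in WPMY-1 vehicle and 7.16 and 7.22 in WPMY-1 RWF arrays. RWF and vehicle arrays were well apart in both lines, and KLHL24 rose by 1.15 ± 0.12, or 2.22-fold (adjusted p = 0.00530), with 0.94 in BPH-1 and 1.36 in WPMY-1. FBXO32 (atrogin-1), a ubiquitin ligase subunit known from muscle wasting, read 5.57 and 5.61 in BPH-1 vehicle, 6.76 and 6.96 in BPH-1 RWF, 8.18 and 7.80 in WPMY-1 vehicle and 8.77 and 8.50 in WPMY-1 RWF arrays. Its level differed more between the lines than between treatments, and its rise of 0.95 ± 0.14 (adjusted p = 0.0249) came from 1.27 for BPH-1 and 0.64 for WPMY-1, close to the limit of 0.5 for the ratio. IRS2, an adaptor of the insulin receptor, and YPEL5 rose by 0.49 ± 0.06 and 0.62 ± 0.10 (adjusted p = 0.0124 and 0.0349). In all, 4 of 21 FOXO and starvation-type genes rose and 0 fell, beside 0.535% and 0.272% of all genes, with a median average effect of 0.11. The number that rose was 1 without BPH-1 vehicle replicate 1, 2 without WPMY-1 RWF replicate 1 or WPMY-1 vehicle replicate 2, and 3 or 4 with any other single array left out.

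MCOLN3, a cation channel of endosomes and lysosomes, read 6.26 and 6.12 in BPH-1 vehicle, 6.97 and 6.91 in BPH-1 RWF, 5.89 and 6.14 in WPMY-1 vehicle and 6.94 and 7.06 in WPMY-1 RWF arrays. The treatments did not overlap, the lines had similar levels, and the average rise was 0.87 ± 0.08, or 1.83-fold (adjusted p = 0.00440). NPC1, which exports cholesterol from lysosomes, read 8.22 and 8.16 in BPH-1 vehicle, 8.96 and 8.58 in BPH-1 RWF, 8.36 and 8.49 in WPMY-1 vehicle and 9.50 and 9.29 in WPMY-1 RWF arrays, and rose by 0.77 ± 0.11 (adjusted p = 0.0225). Its treatments did not overlap in either line. NEU1, a lysosomal sialidase, rose by 0.77 ± 0.12 (adjusted p = 0.0293). NEU1 was read by the brightest of its 8 clusters, which lies on an alternative haplotype. Of 32 lysosomal genes 2 rose and 0 fell, beside 0.535% and 0.272% of all genes. Arrays did not overlap upward in both lines for 12 (37.5%, against 8.26% of all genes), and 25 had higher means in both lines (78.1%, against 34.7%). The median average effect of the 32 genes was 0.16. The number of them that rose was 0 without BPH-1 RWF replicate 1, either WPMY-1 RWF array or WPMY-1 vehicle replicate 2, 1 without BPH-1 vehicle replicate 1 or WPMY-1 vehicle replicate 1, and 2 or 3 with either remaining array left out. ATP6V1E1, a subunit of the proton pump, and TPP1, a peptidase, gave 0.40 and 0.58 without passing (adjusted p = 0.0645 and 0.0983).

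Of 37 genes of the autophagy machinery and its receptors 5 rose and 0 fell, beside 0.535% and 0.272% of all genes. Arrays did not overlap upward in both lines for 16 of them (43.2%, against 8.26% of all genes). With 1 array left out, 4 rose without BPH-1 vehicle replicate 2, 2 without either BPH-1 RWF array or WPMY-1 vehicle replicate 2, and 1 with any of the other 4 left out. MAP1LC3B, the LC3 protein that coats autophagosomes, read 8.24 and 8.22 in BPH-1 vehicle, 8.85 and 8.71 in BPH-1 RWF, 8.52 and 8.52 in WPMY-1 vehicle and 9.19 and 9.09 in WPMY-1 RWF arrays. These values were tight within groups and apart between treatments, and the rise was 0.58 ± 0.06, or 1.50-fold (adjusted p = 0.00511). SQSTM1, the receptor p62, rose by 0.58 ± 0.09 (adjusted p = 0.0249), with 0.60 in BPH-1 and 0.56 in WPMY-1. ULK2, an initiating kinase, rose by 0.51 ± 0.08 (adjusted p = 0.0343), with 0.64 and 0.38, and ATG13, a partner of that kinase, by 0.34 ± 0.06 (adjusted p = 0.0435), with 0.33 and 0.34. The study chose SQSTM1 and ULK2 from these same arrays, so they are not independent evidence of the direction of the list. WIPI1, which binds phosphoinositides on the forming membrane, rose by 0.91 ± 0.15 (adjusted p = 0.0315) but unequally, by 0.56 and 1.25. Conjugation enzymes of the same pathway did not pass, and ATG5, ATG7 and ATG3 had average effects of -0.09, -0.12 and -0.01. MAP1LC3B2, a near-identical relative of MAP1LC3B, was also higher (0.38) and may share its probes, which was not checked. Further genes that rose alike, chosen after their values were seen, act on mTORC1 or lysosomes. RRAGD, a Rag GTPase that couples amino acids to mTORC1, rose by 0.51 ± 0.09, FNIP1, a partner of folliculin, by 0.55 ± 0.07, TSC1, an inhibitor of mTORC1, by 0.31 ± 0.05, and OSTM1, a subunit of a lysosomal chloride transporter, by 0.46 ± 0.08 (adjusted p = 0.0367, 0.0205, 0.0383 and 0.0457).

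Antioxidant, lipid and sterol genes differed in how many passed. NQO1, a quinone reductase that is a target of both NRF2 and the aryl hydrocarbon receptor, read 9.47 and 9.43 in BPH-1 vehicle, 10.05 and 10.02 in BPH-1 RWF, 8.84 and 8.91 in WPMY-1 vehicle and 9.60 and 9.38 in WPMY-1 RWF arrays. The arrays of a group differed little, and NQO1 rose by 0.60 ± 0.06, or 1.52-fold (adjusted p = 0.00602), nearly equally in both lines (0.58 and 0.62). TXNRD1, thioredoxin reductase, rose by 0.47 ± 0.07 (adjusted p = 0.0259). Of 21 NRF2 targets 11 were non-overlapping upward in both lines (52.4%, against 8.26% of all genes), with a median average effect of 0.21. NQO1, TXNRD1 and SLC7A11 were the 3 of the 21 that rose, against 0.535% of all genes. Other members of the list were close to 0, such as HMOX1 (0.13), OSGIN1 (0.07) and TXN (0.02). That count was 3 without BPH-1 RWF replicate 2 and 1 or 2 with any other single array left out. Of 7 targets of the aryl hydrocarbon receptor 1 rose, NQO1, and CYP1B1, an oxidase of that pathway, gave 1.49 in BPH-1 and 0.88 in WPMY-1 without passing on average (adjusted p = 0.157). All 7 were higher in both lines (100%, against 34.7% of all genes), with a median average effect of 0.37. Arrays did not overlap upward in both lines for 5 of them (71.4%, against 8.26%), and 6 were higher at an unadjusted p under 0.05, against 1915 of all 22411 genes.

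CHKA, choline kinase, which starts phosphatidylcholine synthesis, read 7.69 and 7.71 in BPH-1 vehicle, 8.34 and 8.35 in BPH-1 RWF, 7.15 and 7.28 in WPMY-1 vehicle and 7.76 and 7.87 in WPMY-1 RWF arrays. It rose by 0.62 ± 0.06, or 1.54-fold, with the smallest adjusted p of the table (0.00404, shared with LONRF1) and 0.64 and 0.60 in the lines. GPAT3, a glycerol phosphate acyltransferase, also rose alike (0.43 ± 0.07, adjusted p = 0.0307), and LPIN2, a phosphatidate phosphatase, rose unequally (0.27 and 0.60), so that 3 of 18 phospholipid genes rose and 0 fell, with 1 or 2 rising when 1 array was left out. Of 19 genes of cholesterol synthesis and uptake 0 passed, although 18 were higher in both lines (94.7%, against 34.7% of all genes). The median average effect, 0.66, was the largest of any list, and 18 were higher at an unadjusted p under 0.05, against 1915 of all 22411 genes. In the fit of 4 groups 2 of the 19 passed. HMGCS1, an early enzyme of the pathway, read 7.42 and 7.11 in BPH-1 vehicle, 9.19 and 7.27 in BPH-1 RWF, 7.94 and 8.27 in WPMY-1 vehicle and 9.74 and 9.82 in WPMY-1 RWF arrays. In BPH-1 only the RWF replicate 1 array stood above both vehicle arrays, while in WPMY-1 both did. The list as a whole had medians of 0.78 and 0.12 over the vehicle mean in BPH-1 RWF replicates 1 and 2 and of 0.91 and 0.85 in WPMY-1, and 17 of 19 genes were higher in BPH-1 RWF replicate 1 than in replicate 2. Without BPH-1 RWF replicate 2 the number of these genes that passed was 14, and without replicate 1 it was 0.

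Regulators of cell death and immune recognition were among the shared rises. PMAIP1 (NOXA), a pro-apoptotic BH3-only protein, read 7.62 and 7.46 in BPH-1 vehicle, 8.19 and 8.09 in BPH-1 RWF, 6.98 and 6.82 in WPMY-1 vehicle and 7.64 and 7.47 in WPMY-1 RWF arrays. Its treatments did not overlap in either line, and it rose by 0.62 ± 0.07, or 1.54-fold (adjusted p = 0.00846), by 0.60 and 0.65 in the lines. TP53INP1, a p53-induced protein, rose by 0.79 ± 0.11 (adjusted p = 0.0240). They were the members that rose among 21 pro-apoptotic genes, with 0 that fell, and the median of that list was 0.11. With 1 array left out 1 or 2 of them rose. BAX, BAK1 and BAD had average effects of -0.03, -0.03 and 0.01. Of 8 anti-apoptotic genes 0 passed, with 1 at an unadjusted p under 0.05 in each direction, and 0 passed in the fit of 4 groups. Of 17 p53 targets 2 rose, TP53INP1 and SESN2, and 0 did in 6 of the 8 fits with 1 array left out.

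ULBP1, a ligand of the natural killer cell receptor NKG2D, read 6.38 and 6.68 in BPH-1 vehicle, 7.34 and 7.75 in BPH-1 RWF, 5.90 and 5.91 in WPMY-1 vehicle and 7.23 and 6.62 in WPMY-1 RWF arrays. Both lines responded without overlap and by 1.02 each, for an average of 1.02 ± 0.14, or 2.03-fold (adjusted p = 0.0205). ULBP3, another ligand of that receptor, moved the other way in both lines, by -0.35 in BPH-1 and -0.45 in WPMY-1 (average -0.40 ± 0.06, adjusted p = 0.0307). The other 6 of the 8 ligands did not pass, with larger differences in WPMY-1 (0.17 to 0.62) than in BPH-1 (0.01 to 0.13). NCR3LG1, a ligand of the killer cell receptor NKp30 and named after its value was seen, rose by 0.69 ± 0.11 (adjusted p = 0.0364). HERC5, an interferon-induced ligase for ISG15, read 4.90 and 5.08 in BPH-1 vehicle, 5.80 and 5.73 in BPH-1 RWF, 4.50 and 4.80 in WPMY-1 vehicle and 5.84 and 5.91 in WPMY-1 RWF arrays. It was higher without overlap in both lines by 1.00 ± 0.11, or 2.00-fold (adjusted p = 0.00655). Of 20 interferon-stimulated genes on the list 1 rose, IFI44L (0.46 ± 0.07, adjusted p = 0.0341), and 0 fell, with a median of 0.13. GREM1, a secreted antagonist of bone morphogenetic proteins, read 5.43 and 5.35 in BPH-1 vehicle, 6.32 and 6.21 in BPH-1 RWF, 10.35 and 10.48 in WPMY-1 vehicle and 11.02 and 10.87 in WPMY-1 RWF arrays. The levels of the lines were far apart and the rise was 0.70 ± 0.08 (adjusted p = 0.0108), larger in BPH-1 (0.87) than in WPMY-1 (0.53). GREM1 was the 1 gene of 23 on the TGF-beta and BMP list that passed. Of 20 immediate early genes and feedback regulators of the ERK pathway, ETV5 and SPRY2 rose (0.53 and 0.51, adjusted p = 0.0410 and 0.0440) and JUN fell (-0.48 ± 0.08, adjusted p = 0.0421). TCP11L2 (1.07 ± 0.18, adjusted p = 0.0401) and TDRKH (0.75 ± 0.10, adjusted p = 0.0217), which acts in small RNA biogenesis in the mouse germline, completed the largest rises together with 1 further gene not described here.

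Among the falls, the largest average effect was that of HAS2, the synthase of hyaluronan, which read 10.14 and 9.35 in BPH-1 vehicle, 8.58 and 8.28 in BPH-1 RWF, 9.78 and 10.22 in WPMY-1 vehicle and 8.22 and 8.72 in WPMY-1 RWF arrays. All 4 RWF arrays lay below all 4 vehicle arrays, and HAS2 fell by 1.42 ± 0.19 (SE, log2), a 2.68-fold lower level (adjusted p = 0.0170), with -1.31 in BPH-1 and -1.53 in WPMY-1. TNC, the matrix glycoprotein tenascin C, read 8.50 and 8.22 in BPH-1 vehicle, 7.59 and 7.74 in BPH-1 RWF, 10.59 and 10.25 in WPMY-1 vehicle and 9.67 and 9.66 in WPMY-1 RWF arrays. The lines differed in level, the treatments did not overlap within either, and TNC fell by 0.72 ± 0.09 (adjusted p = 0.0141). They were the 2 of 27 matrix and contractile genes that fell, and 0 rose. The other 25 genes of that list did not pass the average test. List medians were -0.01 for BPH-1 and -0.53 for WPMY-1, and the line effects were -0.01 and -0.61 for COL1A1, 0.01 and -1.11 for MYL9 and -0.08 and -1.03 for THBS1, whose difference between lines did not pass (limma interaction, adjusted p = 0.292, 0.109 and 0.509). With 1 array left out, 2 genes of the list passed in 4 of the 8 fits, 1 passed without BPH-1 vehicle replicate 1, WPMY-1 vehicle replicate 2 or WPMY-1 RWF replicate 2, and 0 passed without WPMY-1 RWF replicate 1. GJA1, the gap junction protein connexin 43, fell by 0.53 ± 0.10 (adjusted p = 0.0487), and ANXA6, a calcium-dependent membrane-binding protein, by 0.56 ± 0.09 (adjusted p = 0.0314).

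**Figure D3:**
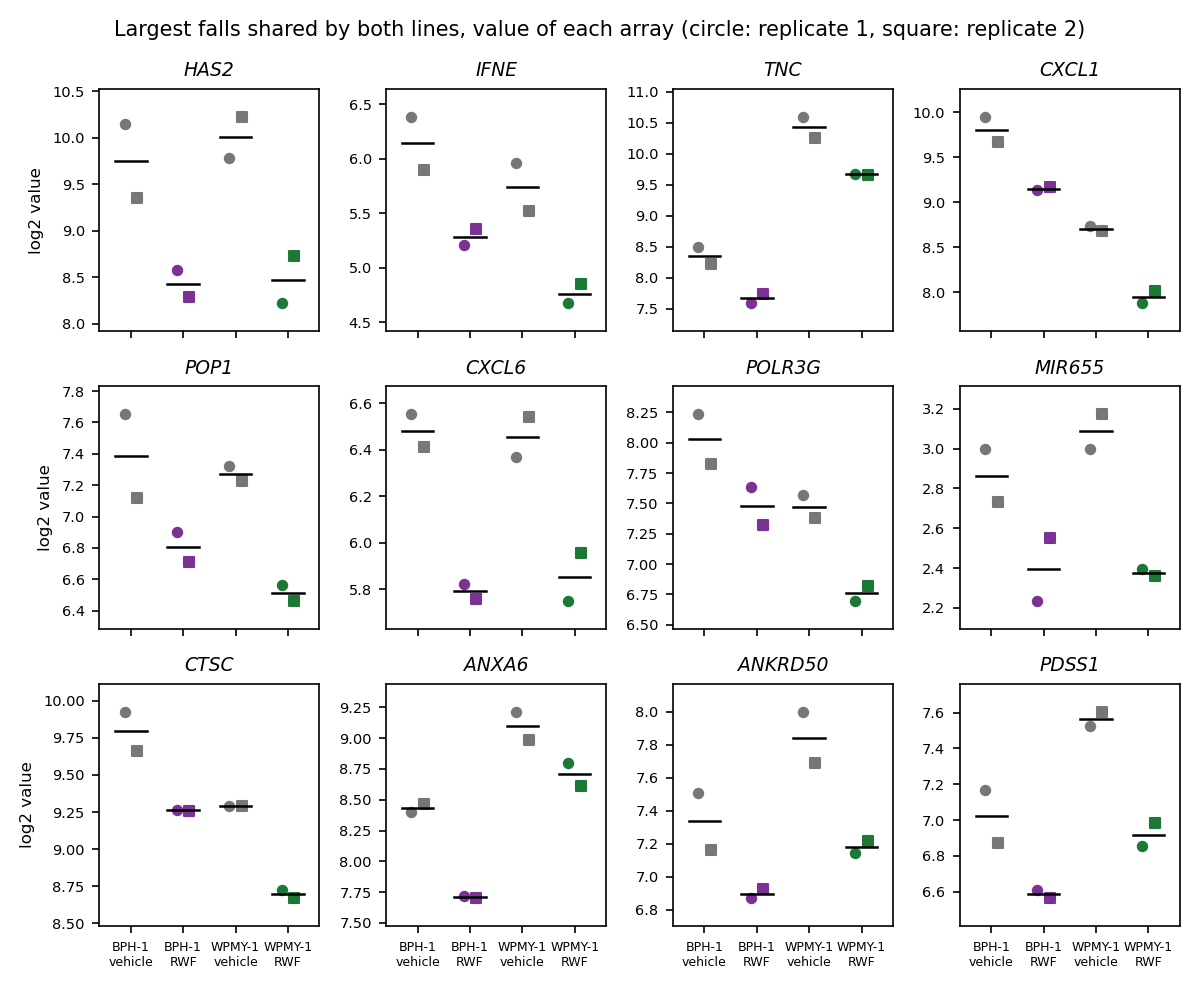
Log2 value of each array (circle: replicate 1, square: replicate 2, bar: mean of 2 arrays) for the 12 largest falls shared by both lines, with vehicle in grey, BPH-1 RWF in purple and WPMY-1 RWF in green on axes that start at different values. In each panel both RWF arrays lie below both vehicle arrays of the same line, as the criterion for moving alike requires. MIR655 lies near the bottom of the scale (mean 2.68).

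CXCL1, a neutrophil-attracting chemokine, read 9.95 and 9.67 in BPH-1 vehicle, 9.13 and 9.17 in BPH-1 RWF, 8.73 and 8.68 in WPMY-1 vehicle and 7.88 and 8.01 in WPMY-1 RWF arrays. Without overlap in either line it fell by 0.71 ± 0.07, a 1.63-fold lower level (adjusted p = 0.00582). CXCL6, a chemokine of the same family, read 6.55 and 6.41 in BPH-1 vehicle, 5.82 and 5.76 in BPH-1 RWF, 6.37 and 6.54 in WPMY-1 vehicle and 5.75 and 5.96 in WPMY-1 RWF arrays. It was similar in both lines at either treatment and fell by 0.65 ± 0.07 (adjusted p = 0.00792). They were the 2 of 19 NF-kB targets and cytokines that fell, with 0 that rose and a list median of -0.07, and 2 fell with any 1 array left out. IFNE, interferon epsilon, read 6.38 and 5.90 in BPH-1 vehicle, 5.21 and 5.36 in BPH-1 RWF, 5.96 and 5.53 in WPMY-1 vehicle and 4.67 and 4.85 in WPMY-1 RWF arrays. RWF arrays were below vehicle arrays in both lines, and IFNE fell by 0.92 ± 0.12 (adjusted p = 0.0204). CTSC, a lysosomal dipeptidyl peptidase, fell by 0.56 ± 0.07 (adjusted p = 0.0108) with similar sizes in the lines (-0.53 and -0.59), against the direction of the 2 lysosomal genes that rose. MIR655, a microRNA locus, fell by 0.59 ± 0.10 (adjusted p = 0.0341) from vehicle means of 2.86 and 3.09, values that can be background.

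2 of the largest falls were in genes that act on RNA. POP1, a subunit of the ribonucleases P and MRP, which process transfer and ribosomal RNA, read 7.65 and 7.12 in BPH-1 vehicle, 6.90 and 6.71 in BPH-1 RWF, 7.32 and 7.22 in WPMY-1 vehicle and 6.56 and 6.46 in WPMY-1 RWF arrays, and fell by 0.67 ± 0.11 (adjusted p = 0.0356). POLR3G, a subunit of RNA polymerase III, read 8.23 and 7.82 in BPH-1 vehicle, 7.64 and 7.33 in BPH-1 RWF, 7.57 and 7.38 in WPMY-1 vehicle and 6.70 and 6.82 in WPMY-1 RWF arrays, and fell by 0.63 ± 0.11 (adjusted p = 0.0401). The arrays of both genes did not overlap between treatments within a line, although BPH-1 vehicle replicate 2 lay close to the RWF arrays. On the list of ribosome biogenesis 0 of 24 genes passed, while 23 were lower in both lines (95.8%, against 24.5% of all genes). Arrays did not overlap downward in both lines for 10 (41.7%, against 6.96%). At an unadjusted p under 0.05, 17 were lower, against 1838 of all 22411 genes, and 2 of the 24 passed in the fit of 4 groups. The median average effect of that list was -0.26, with -0.13 in BPH-1 and -0.35 in WPMY-1. NOP16 and BOP1, factors of the large ribosomal subunit, gave -0.41 and -0.33 without passing (adjusted p = 0.0732 and 0.0917). Chosen after their values were seen, NAT10, which acetylates ribosomal RNA (-0.41), SRM, spermidine synthase (-0.47), and EIF2B3, a subunit of the translation factor eIF2B (-0.34), fell alike (adjusted p = 0.0440, 0.0293 and 0.0447).

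Of the nuclear-encoded respiratory chain subunits 0 passed. Means were lower in both lines for 20 of the 23 genes (87.0%, against 24.5% of all genes). At an unadjusted p under 0.05, 8 of them were lower, against 1838 of all 22411 genes. In the fit of 4 groups 0 of the 23 passed, and the list median was -0.09. Among genes chosen after their values were seen, factors of mitochondrial import and assembly fell alike, with TIMM22 and TIMM13 of the inner membrane translocases at -0.48 and -0.31, SCO1, a copper chaperone of cytochrome oxidase, at -0.39 and BCS1L, an assembly factor of complex III, at -0.43 (adjusted p = 0.0307, 0.0465, 0.0218 and 0.0307). PDSS1, which makes the side chain of coenzyme Q, fell by 0.54 ± 0.08 (adjusted p = 0.0273). Of 25 genes of glycolysis and hypoxia 2 fell, HK2, hexokinase 2 (-0.41 ± 0.07, adjusted p = 0.0382), and PGAM1, a phosphoglycerate mutase (-0.35 ± 0.06, adjusted p = 0.0356), and 0 rose. With 1 array left out, 2 genes of the list passed without BPH-1 vehicle replicate 2 and 0 passed with any other single array left out. In the cell cycle lists, CCNE1, cyclin E1, rose (0.40 ± 0.07, adjusted p = 0.0454) and GINS2, a replication factor, fell (-0.33 ± 0.06, adjusted p = 0.0457) among 24 G1/S genes. CDC20, an activator of the anaphase-promoting complex, fell (-0.37 ± 0.07, adjusted p = 0.0457) among 24 G2/M genes, of which 16 were lower in both lines. A pseudogene, CDC20P1, moved with it (-0.47) and may share its probes, which was not checked.

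**Figure D4:**
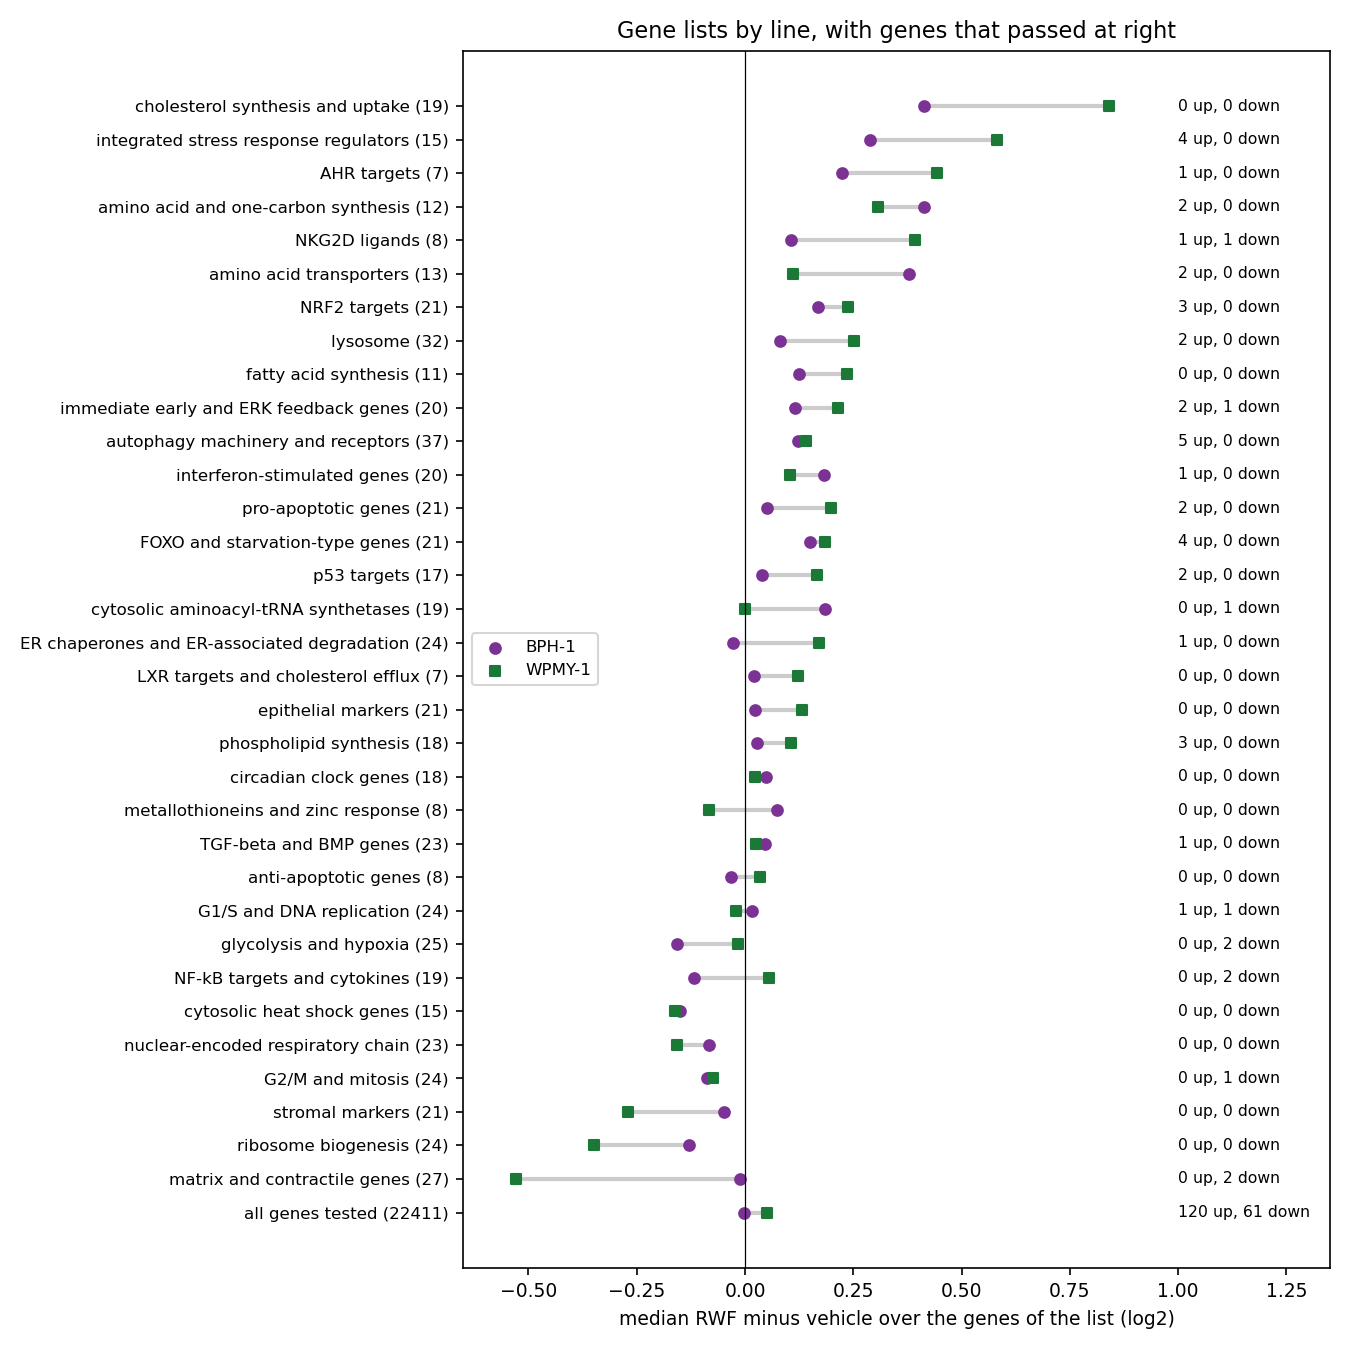
Median RWF minus vehicle (log2, x axis) over the measured genes of each list (number in brackets) in BPH-1 (purple circles) and WPMY-1 (green squares), with the genes that passed the average test at the right. By the median average effect cholesterol genes come first (0.41 in BPH-1 and 0.84 in WPMY-1) with 0 passing, and stress response genes follow (0.29 and 0.58) with 4. In BPH-1 amino acid and one-carbon synthesis (0.41) lies level with cholesterol genes, and amino acid transporters (0.38) lie above stress response genes. Matrix and contractile genes are near 0 in BPH-1 and at -0.53 in WPMY-1.

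Several stress programmes gave 0 calls. The lists of circadian clock genes (18 measured), cytosolic heat shock genes (15) and metallothioneins with zinc response genes (8) had 0 calls in either direction by limma, with 5, 6 and 0 genes at an unadjusted p under 0.05 and 1, 0 and 0 calls in the fit of 4 groups. Their median average effects were 0.04, -0.09 and 0.02. Over all 22411 genes, 1915 were higher and 1838 lower at that unadjusted p. Fatty acid synthesis (11) and targets of the oxysterol receptor LXR (7) had 0 calls too, with 5 genes each at an unadjusted p under 0.05, 1 call each in the fit of 4 groups and medians of 0.16 and 0.07. Of 24 ER chaperones and ER-associated degradation genes 1 rose, ERO1B, an ER oxidase (0.60 ± 0.08, adjusted p = 0.0205), and 0 fell, with a list median of 0.08 (-0.03 in BPH-1 and 0.17 in WPMY-1). Arrays did not overlap upward in both lines for 7 of the 24 (29.2%, against 8.26% of all genes) and downward for 0. At an unadjusted p under 0.05, 6 were higher and 0 lower, and 3 rose in the fit of 4 groups.

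How evenly the lines shared a change was described by the ratio of the smaller to the larger line effect, whose median was 0.739 over the risers and 0.719 over the fallers. It was at least 0.75 for 56 risers and 29 fallers. A difference between the lines enters the spread of the average test, so that test favours genes with like effects. In a fit of 4 groups, where it does not, the mean of both line effects passed for 391 genes and 207 of these moved alike, 171 of them among the 173. The interaction of line and treatment passed for 2 genes of 22411 (0.00892%), neither of them among the 173, and at an unadjusted p under 0.05 for 12 of the 114 risers and 1 of the 59 fallers, against 8.06% of all genes. The limit on the ratio keeps out genes with unlike line effects, so it also holds down these counts among the 173. An interaction that misses the threshold does not show equal effects: for SLC7A11 the difference, WPMY-1 minus BPH-1, had a 95% interval of -1.28 to 1.14, and for CHKA of -0.30 to 0.23. The effects of RWF in the lines correlated across genes at r = 0.378, and at 0.437 over the 15925 brighter genes, as a description across genes that are not independent.

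Among 181 genes past the average test, 8 had a smaller line effect under 0.5 of the larger, and the interaction passed for 0 of them. NTN4, the laminin-like protein netrin 4, read 8.36 and 8.33 in BPH-1 vehicle, 8.89 and 8.85 in BPH-1 RWF, 6.15 and 6.26 in WPMY-1 vehicle and 7.91 and 7.67 in WPMY-1 RWF arrays. Every RWF array was higher than the vehicle arrays of its line, but BPH-1 changed by 0.53 and WPMY-1 by 1.59 (limma interaction, adjusted p = 0.109). GDF15, a stress-induced cytokine, leaned the other way, with BPH-1 at 1.48 and WPMY-1 at 0.71, and missed the limit of 0.5 narrowly (0.481). WIPI1, NMRAL2P, SLC17A5 and LPIN2 rose and NLN and ALDH1B1 fell more in WPMY-1, with ratios of 0.417 to 0.498. At the threshold of the test, GJA1, BOLA3 and ROR1 lay just inside (adjusted p = 0.0487, 0.0488 and 0.0496), and ZNF674-AS1, SLC3A2 and CDIN1 just outside (-0.41 with adjusted p = 0.0506, 0.50 with adjusted p = 0.0507 and -0.38 with adjusted p = 0.0510).

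Genes chosen in 1 line were then read in the other, which shares no vehicle arrays with it. The choice still drew on the other line, because the fit for effects within a line estimates the spread from arrays of both lines. A gene with a small spread in the other line passes more easily and is also less likely to overlap there. The shares without overlap below are therefore favoured by the choice and are not independent evidence. Of 200 genes that rose in WPMY-1 alone, 172 were higher in BPH-1 (86.0%, against 48.3% of all genes) and 145 without overlap (72.5%, against 16.7%), with median effects of 0.60 in WPMY-1 and 0.22 in BPH-1. Of 248 genes that fell in WPMY-1, 197 were lower in BPH-1 (79.4%, against 51.7%) and 144 without overlap (58.1%, against 18.6%), with medians of -0.62 and -0.12. The 100 rising genes with the smallest p in BPH-1 were higher in WPMY-1 for 88 (88.0%, against 61.9%), and the 100 falling genes were lower for 59 (59.0%, against 38.1%).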

How the data were processed

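Total RNA of the 2 lines was hybridized to Affymetrix Human Transcriptome Array 2.0 chips, and the authors deposited log2 values of 67528 transcript clusters on 8 arrays, made by RMA (version not given in the sources used here), a method that subtracts background, brings all arrays to 1 distribution and combines the probes of a cluster. A change of all genes in 1 direction would be partly removed. There is no detection call, so low values may be background. Precision is limited by having 2 arrays per group. Labels gave no batch.

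Clusters were named from the platform annotation (23781 with 1 symbol, 1543 with several and 42204 with none), with 306 symbols updated through RefSeq, which held 23777 of them. Clusters with several symbols were not named from. 2366 clusters hold the same 8 values as another. Some genes named by the study are not reported here.

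Values were fitted as deposited with limma 3.58.1 in R 4.3.3 (line plus treatment, 5 residual and 4.41 prior degrees of freedom, and 4 groups for effects within a line and their interaction, 4 and 4.34), with Benjamini-Hochberg adjustment over all clusters at 0.05. On simulated data of 67528 clusters with 200 changed, 83.0% of clusters changed by 0.5 and 100% of those changed by 1 (log2) were recovered with 19 false calls. The simulation gave both lines the same effect and drew independent normal noise for each cluster and array. It held no deviation shared by many genes of an array, so its rates need not hold for the real arrays. Plots were made in Python 3.11.15 with matplotlib 3.10.9.

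Members and the 35 gene lists were chosen with earlier results of these data known. Named were up to 15 largest rises and falls that moved alike, up to 4 members of each list past the threshold, genes the study names for the arrays, 5 genes with the smallest interaction p among those past it, and 3 genes on each side of the threshold, besides members given as examples that did not pass. Genes called chosen after their values were seen, the 8 unequal genes and the 13 that passed in every fit with an array left out fall outside that rule. Alternatives were quantile normalization, median centring, a replicate block, no dim clusters (34389 kept), robust variances with a trend, 1 cluster or the mean of the clusters per gene, the fit of 4 groups, other limits of the call, the methods' t-test and each array left out, when the lone array of a group is assumed to vary like the others. Counting clusters with the same values once was added after seeing the data.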

Additional observations from a re-analysis of the deposited data

Results flagged for a closer look

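Among 22411 genes, 2 had RWF effects that differed between the lines past the threshold (limma interaction, adjusted p = 0.0455 for both), and neither moved alike. CXADR, a receptor of tight junctions, read 8.31 and 8.10 in BPH-1 vehicle, 8.18 and 8.02 in BPH-1 RWF, 5.69 and 5.70 in WPMY-1 vehicle and 7.10 and 7.08 in WPMY-1 RWF arrays, a difference of 1.50 (WPMY-1 minus BPH-1, 95% interval 1.19 to 1.81). LY96, a partner of the toll-like receptor TLR4, read 1.89 and 1.98, 1.99 and 2.10, 3.82 and 3.65, and 5.32 and 5.30 in the same order, a difference of 1.46 (1.17 to 1.75), and its BPH-1 values can be background. By these values CXADR overlapped between treatments in BPH-1 and both genes were apart in WPMY-1. The count of genes with an interaction was 0 under quantile normalization, median centring, no dim clusters, trend and robust variances and the replicate block. Groups of 2 arrays were too small for a test of outlying arrays.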

How the results depend on the processing

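All 70 named genes kept the direction of their average effect under each alternative that gave them a value (leaving out dim clusters removed 2). With 1 array left out this was fixed in advance for all of them but CXADR, as their arrays did not overlap in either line. Of the 70, 57 also kept their side of the threshold under quantile normalization, 50 under median centring, 47 under the replicate block and 19 to 50 with 1 array left out. Genes past the average test (181), moving alike (173), with an interaction (2), past the test within BPH-1 (5), within WPMY-1 (448) and within both lines in the same direction (1) changed as follows, and the cause was not tested unless stated. Quantile normalization gave 0 with an interaction, 0 within BPH-1 and 0 in both lines. Median centring gave 118 past the average test, 114 alike, 0 with an interaction and 3 within BPH-1. Without dim clusters fewer were tested, and the counts were 383, 314, 0, 31, 889 and 12 in the order above. With 1 cluster per gene, again fewer tested, they were 536, 424, 25, 39, 1361 and 16, and with the mean of the clusters 536, 424, 25, 39, 1374 and 16. Trend and robust variances gave 0 with an interaction. The fit of 4 groups gave 391 past the average test. Other limits for moving alike gave 11 genes at an adjusted p under 0.01, 357 under 0.1 and 85 at a ratio of at least 0.75. The methods' t-test, unadjusted, called 1572 genes with no line term, 1371 in BPH-1, 2936 in WPMY-1 and 203 in both lines, and after Benjamini-Hochberg 0, 0, 0 and 0. With 1 array left out the counts ranged from 19 to 194 past the average test, 19 to 182 alike, 0 to 4 with an interaction, 0 to 3 within BPH-1, 63 to 359 within WPMY-1 and 0 to 1 in both lines. No label ties replicate numbers to a shared culture or day, and over all clusters r of the deviations of same-numbered arrays was 0.125 for BPH-1 and -0.0256 for WPMY-1, so the numbers were not taken as pairs, although 22 of the 40 stress and amino acid genes were higher in replicate 1 of both WPMY-1 treatments. With a replicate block the counts were 115 past the average test (93 higher and 22 lower), 111 alike, 0 with an interaction, 12 within BPH-1 and 5 in both lines. The remaining counts stayed within 1.5 times.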
